A study of Homo sapiens with 16 samples.

Results

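Periplakin (PPL) and 9 other genes of the cornified envelope and of keratinocyte differentiation were examined across 4 conditions: EVPL, IVL, TGM1, SCEL, CNFN, A2ML1, CSTA, CALML5 and KRT10. The 10 genes were found by symbol among the 78894 genes of the table, by a rule that uses no measured value. They were chosen, however, with earlier results of these data known. Of the 10, 7 passed the filter on low counts and were tested with 16790 genes in all, while IVL, CNFN and CALML5 lay below it.

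RNA was sequenced after poly(A) selection from MCF10DCIS.com, a human breast epithelial line derived from MCF10A that forms lesions resembling ductal carcinoma in situ. A single clone with both copies of PCSK5 disrupted was transduced with V5-tagged PCSK5 alleles that its guide RNA does not cut and that a tetracycline-regulated promoter controls. PCSK5 encodes a protease of the secretory pathway, one of the proprotein convertases, which cut GDF11, a TGF-beta family ligand, and other proteins out of their precursors. The series asks how the transcripts of cultures with the M452I or T288P allele differ from those with the wildtype allele, and how added GDF11 changes T288P cultures.

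The 4 groups were T288P cells with 250 ng/ml recombinant mature GDF11 throughout (T288P+GDF11), T288P cells, M452I cells and cells with the wildtype allele (WT), with 4 wells each. All of them share the PCSK5-/- clone, hygromycin selection as a polyclonal line, 5000 cells per well on matrigel with 2% matrigel and 5 ng/ml EGF in the medium, and 1 µg/ml doxycycline from day 4 until harvest on day 8. Each allele is represented by 1 line from 1 clone, so p-values measure the spread between wells and not between lines. T288P+GDF11 and T288P are wells of the same line, whereas the other comparisons also differ in the line.

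The cornified envelope is a layer of cross-linked protein that forms under the plasma membrane of stratified epithelia late in differentiation. Periplakin and envoplakin (EVPL) are plakins that line the membrane at desmosomes and link it to keratin filaments, and involucrin (IVL) joins them as an early scaffold. Transglutaminase 1 (TGM1) then cross-links these proteins with sciellin (SCEL), cornifelin (CNFN), cystatin A (CSTA) and others. These genes are best known from skin, and normal breast ducts do not cornify.

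Sequences upstream of 4 of the genes are shown because they stand for different outcomes in the measurements. IVL was almost unread, SCEL and A2ML1 were called in no comparison, and KRT10 was called in 1. The sequences come from the RefSeq promoter table on GRCh38.p14 and run 5′ to 3′ on the gene's strand towards the RefSeq start, without bases that lie in a GENCODE exon, so that the runs of IVL (by 1 base), SCEL and A2ML1 stop short of that start. Capitals mark matches to TGANTCA, the letters of an AP-1 element, and to TATAAA. The IVL window is chr1:152908296-152908544 on the plus strand, SCEL chr13:77535456-77535673 on the plus strand, A2ML1 chr12:8844754-8844953 on the plus strand and KRT10 chr17:40822615-40822864 on the minus strand. The A2ML1 window lies inside the GENCODE span of its gene.
IVL: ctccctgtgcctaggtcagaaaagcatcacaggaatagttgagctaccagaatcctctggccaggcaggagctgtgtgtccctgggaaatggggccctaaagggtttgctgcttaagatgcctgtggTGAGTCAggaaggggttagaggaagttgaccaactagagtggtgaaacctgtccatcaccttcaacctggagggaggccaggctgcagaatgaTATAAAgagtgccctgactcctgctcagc
SCEL: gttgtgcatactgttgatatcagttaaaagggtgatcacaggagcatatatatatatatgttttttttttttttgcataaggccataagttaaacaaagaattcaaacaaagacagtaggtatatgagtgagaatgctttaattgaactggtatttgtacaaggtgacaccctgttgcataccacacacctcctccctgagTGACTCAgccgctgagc
A2ML1: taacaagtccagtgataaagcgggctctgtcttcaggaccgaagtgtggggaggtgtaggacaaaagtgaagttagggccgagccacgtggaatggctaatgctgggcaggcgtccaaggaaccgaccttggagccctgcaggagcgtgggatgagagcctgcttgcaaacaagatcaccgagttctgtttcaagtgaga
KRT10: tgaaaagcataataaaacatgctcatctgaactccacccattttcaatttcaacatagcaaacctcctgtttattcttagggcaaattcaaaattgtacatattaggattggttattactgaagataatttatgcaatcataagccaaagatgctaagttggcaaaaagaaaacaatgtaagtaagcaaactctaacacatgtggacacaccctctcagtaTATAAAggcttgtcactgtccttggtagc

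IVL held TGAGTCA at 123 to 117 bases upstream of its RefSeq start and TATAAA at 30 to 25 bases, SCEL held TGACTCA at 49 to 43 bases, and KRT10 held TATAAA at 29 to 24 bases. TGANTCA occurred on either strand in 6.6% of the 27305 upstream windows of 250 bases in the table and TATAAA in 11.1%. Also searched on both strands were GGGCGG, present in 42.3% of windows and 4 times upstream of CNFN, and CAGACA, present in 13.6% of windows and upstream of CALML5. None of the 4 motifs was matched in the A2ML1 window. The matches are descriptions of letters, and binding was not measured. The table gave windows for 6 of the 10 genes, and PPL, EVPL, TGM1 and CSTA were not among them.

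The libraries held 28.5 to 50.8 M (mega) counts. Levels are given as CPM, counts per M after TMM scaling, with the SD over 4 wells, and 1 count was worth 0.0217 to 0.0353 CPM. PCSK5 averaged 40.8 ± 10.7 CPM in T288P+GDF11, 37.7 ± 13.5 CPM in T288P, 39.5 ± 19.3 CPM in M452I and 45.4 ± 12.0 CPM in WT, and the edgeR test called it in none of the 6 comparisons. These counts cannot separate the introduced allele from the disrupted endogenous gene. Along the first principal component (27.1% of the variance), M452I replicate 4 lay at 37.5 with the T288P+GDF11 wells (44.1 to 63.6) and away from the other M452I wells (-44.7 to -32.9). T288P replicate 1 lay at -43.0, within the range of those other M452I wells and away from the other T288P wells (2.15 to 8.81). The WT wells lay at -39.6 to -5.03. The labels of both outlying wells were kept, and whether the wells were exchanged or mixed was not tested. The summed level of 7 epithelial markers ran from 2604 to 2978 CPM in T288P+GDF11, 3574 to 4057 CPM in T288P, 3511 to 4141 CPM in M452I and 3634 to 3841 CPM in WT. KRT5 was the largest term, with a mean of 1731 CPM in T288P+GDF11 and 2346 CPM in T288P. In T288P+GDF11 against T288P, edgeR called 3 of the 7 lower and 0 higher, beside 7.88% of all genes called lower. These were CDH1 (log2 fold change -0.55, edgeR adjusted p = 0.000498), KRT5 (-0.44, edgeR adjusted p = 0.00317) and KRT18 (-0.52, edgeR adjusted p = 0.0435). TP63 alone had a higher mean in T288P+GDF11 than in T288P, 30.5 against 25.7 CPM, which edgeR did not call. The part of this sum in the results was not tested. The fibroblast markers (5 genes, of which 2 were at 0 in all libraries) summed to 5.75 to 8.37 CPM in T288P+GDF11 and to at most 5.74 CPM elsewhere. Immune markers (4 genes) summed to at most 1.27 CPM in any library. Endothelial markers (3 genes) summed to 1.44 to 2.80 CPM in T288P+GDF11 and to 0.313 to 1.23 CPM in the other groups. That sum was nearly all PECAM1, with a mean of 1.74 CPM in T288P+GDF11, beside VWF at 0.0147 and CDH5 at 0.0465 CPM. PECAM1 was called higher in T288P+GDF11 than in T288P at 0.524 CPM (log2 fold change 1.72, edgeR adjusted p = 0.00633). In these bulk samples, fewer cells of a type and less RNA per cell cannot be told apart.

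With GDF11 in T288P cells, 3 of the 7 tested genes were lower, PPL, TGM1 and CSTA, and 0 were higher. The edgeR test called 12.9% of all genes in T288P+GDF11 against T288P, 7.88% as lower. Without M452I replicate 4, which enters the shared estimate of the spread, EVPL and KRT10 were called lower as well, 5 in all. In that setting 3435 of 17278 genes were called, 1996 of them lower. Against WT, 4 of the 7 were lower in T288P+GDF11, the same 3 and EVPL, beside 28.9% of all genes called and 15.1% called lower. Without WT replicate 3, PPL was the 1 call left, beside 4522 of 17155 genes called and 2213 called lower. Against M452I, 4 of the 7 were lower in T288P+GDF11, namely PPL, TGM1, CSTA and KRT10, beside 21.2% called and 12.9% called lower. Without M452I replicate 3, and likewise without replicate 1 or 3 of T288P+GDF11, the 2 calls of PPL and CSTA were left. Over all genes, those settings gave 1991 of 17188, 2081 of 17261 and 2146 of 17067 calls, in that order. These 3 comparisons share the T288P+GDF11 wells, so they are not separate evidence of a direction. Fewer genes were called between the alleles without added ligand. PPL was the 1 member called in T288P against WT, where 0.0417% of all genes were called and 0.0298% called lower. In M452I against WT edgeR called 0 of the 7, beside 0.0238% of all genes, with 2 of the 7 (PPL and CSTA) at an unadjusted p under 0.05, as were 6.3% of all genes. DESeq2 called 1 of them there, PPL, beside 30 of 16790 genes. M452I against T288P gave 0 calls among the 7, at either an adjusted or an unadjusted p under 0.05, beside 0.00596% of all genes called and 2.18% at an unadjusted p under 0.05, and DESeq2 also called 0.

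The median log2 fold change of the 7 tested genes was -0.51 in T288P+GDF11 against T288P, -0.40 against WT and -0.68 against M452I. The same medians over all 16790 genes were -0.01, 0.02 and -0.01. For the alleles alone, the median of the 7 genes was -0.08 in T288P against WT and -0.09 in M452I against WT, and that over all genes was 0.02 and 0.03.

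**Figure D1:**
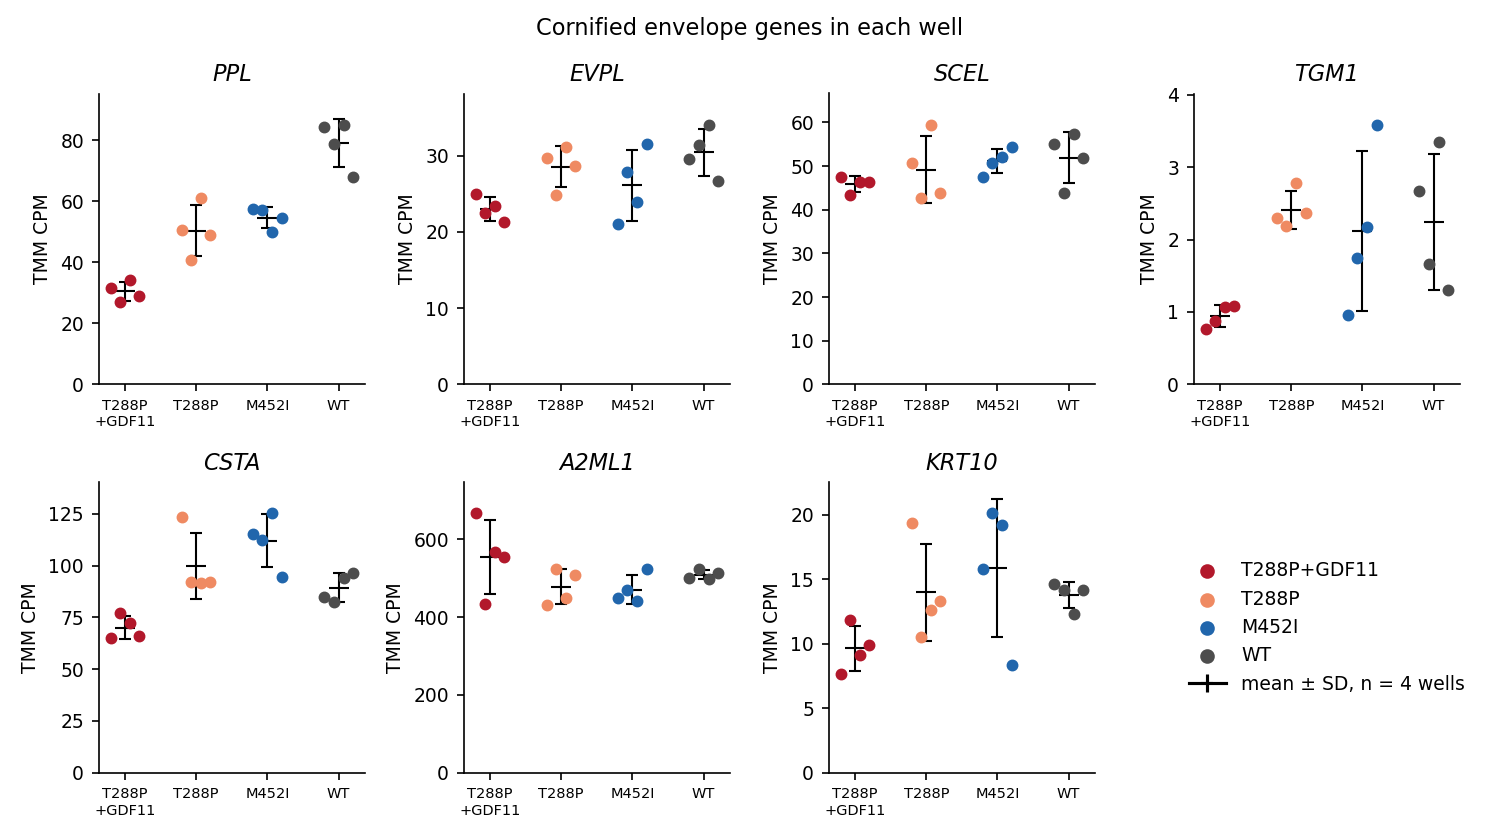
Level of each of the 7 tested genes in CPM (vertical axis, linear, from 0) in the 4 conditions, with 1 point per well, a bar at the mean and whiskers of 1 SD over 4 wells. PPL is lowest in T288P+GDF11 (27.1 to 34.2 CPM) and highest in WT (68.0 to 85.0 CPM), whereas the groups overlap for SCEL and A2ML1.

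**Figure D2:**
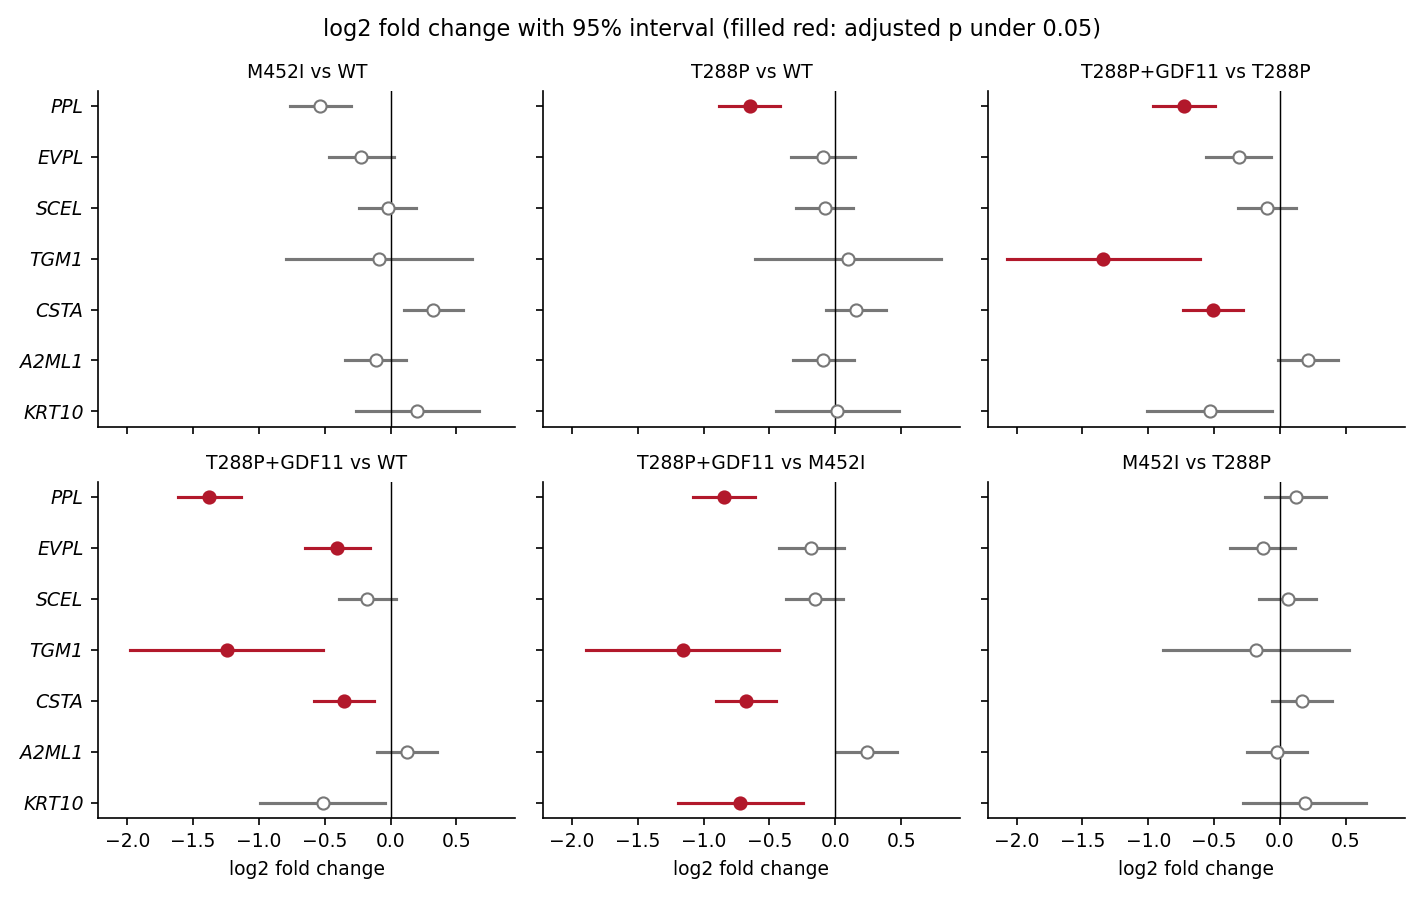
Log2 fold change of each tested gene in the 6 comparisons (horizontal axis), with its 95% interval from the edgeR model and filled points where the gene was called. The intervals of PPL lie below 0 in all comparisons but M452I against T288P (-0.12 to 0.35), and those of SCEL span 0 in every comparison.

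Levels were compared between genes per kilobase (kb) of annotated exon. A2ML1 and CSTA were the highest of the 10 in every group. A2ML1 had 76.1 ± 13.0 CPM per kb in T288P+GDF11, 65.5 ± 6.11 in T288P, 64.5 ± 5.05 in M452I and 69.8 ± 1.62 in WT. CSTA had 51.0 ± 4.12 CPM per kb in T288P+GDF11, 72.7 ± 11.4 in T288P, 81.5 ± 9.35 in M452I and 65.1 ± 4.93 in WT. The ranges mean ± SD of this pair met in T288P and WT, and not in T288P+GDF11 or M452I, where they stood in opposite orders.

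SCEL came next, at 10.9 ± 0.427 CPM per kb in T288P+GDF11 and 12.4 ± 1.41 in WT. PPL was close below SCEL in WT at 10.3 ± 1.02 CPM per kb, and at 3.96 ± 0.399 in T288P+GDF11 it stood beside KRT10 (4.49 ± 0.818). PPL (6.55 ± 1.09) and KRT10 (6.52 ± 1.77) did not differ beyond their spread in T288P either, nor did PPL (7.11 ± 0.453) and KRT10 (7.40 ± 2.50) in M452I. EVPL had 3.06 ± 0.204 CPM per kb in T288P+GDF11 and 4.05 ± 0.413 in WT, and TGM1 0.254 ± 0.0413 in T288P+GDF11 and 0.601 ± 0.251 in WT. CNFN and IVL were lower still, at most 0.297 and 0.0474 CPM per kb as a group mean, and CALML5 was at 0.

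**Figure D3:**
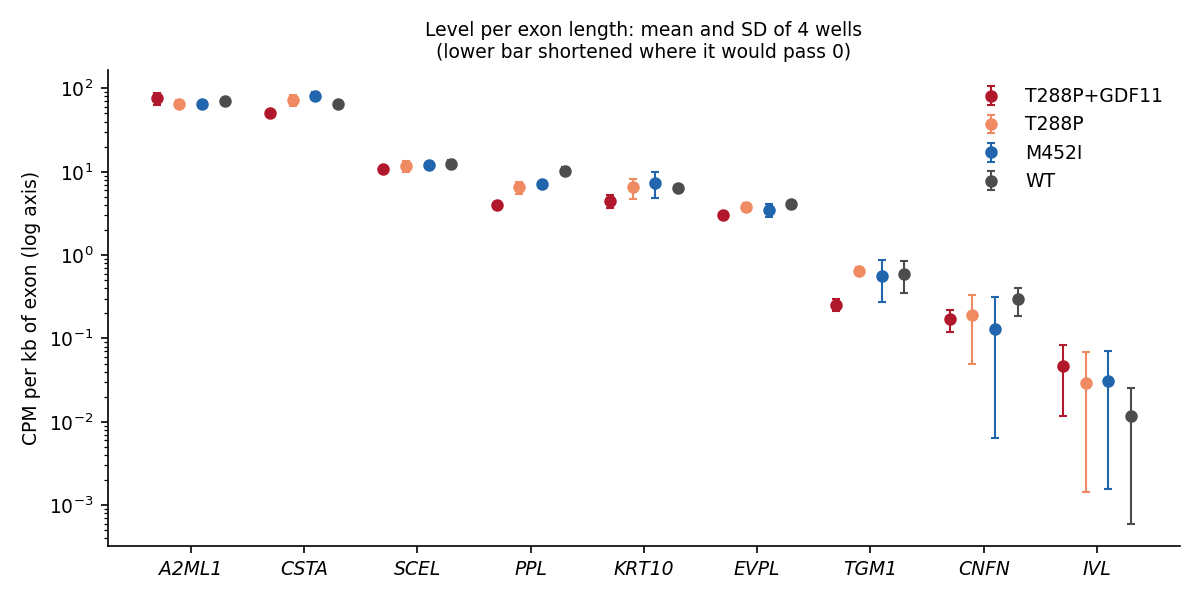
Level per kb of annotated exon (logarithmic axis) for the genes with counts, with the group mean and 1 SD over 4 wells in each condition. The genes run from A2ML1 and CSTA, at 51.0 to 81.5 CPM per kb, down to IVL at 0.0119 to 0.0474 CPM per kb.

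Periplakin was the member with the smallest adjusted p in each of the 4 comparisons of T288P or T288P+GDF11 with another group in which any member was called. PPL (ENSG00000118898; GRCh38 chromosome 16, 4882507 to 4960741, minus strand) read 31.5, 27.1, 34.2 and 29.0 CPM in the T288P+GDF11 wells and 50.7, 40.8, 61.1 and 48.8 CPM in the T288P wells. It read 57.3, 57.1, 49.8 and 54.4 CPM in the M452I wells and 84.1, 78.8, 85.0 and 68.0 CPM in the WT wells. Every T288P+GDF11 well was below every well of the other groups, every WT well was above all others, and the T288P and M452I wells overlapped.

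With GDF11, PPL fell to 30.4 ± 3.07 CPM, against 50.4 ± 8.35 CPM in T288P, a level 1.65-fold lower (log2 fold change -0.73 ± 0.11 SE, adjusted p = 0.000562 by edgeR). Against WT at 79.0 ± 7.82 CPM, the T288P+GDF11 level was 2.60-fold lower (log2 fold change -1.38 ± 0.11 SE, adjusted p = 7.26e-07 by edgeR), the gene of rank 8 by p among the 16790. Against M452I at 54.6 ± 3.48 CPM it was 1.79-fold lower (edgeR adjusted p = 0.00013). These 3 calls held under all 24 alternative analyses. No overlap in the lower direction was seen for 11.8% of all genes in T288P+GDF11 against T288P, for 17.4% against WT and for 9.97% against M452I.

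Without the ligand, PPL was 1.57-fold lower in T288P than in WT (log2 fold change -0.65 ± 0.11 SE, adjusted p = 0.0386 by edgeR). That call held under 9 of 24 alternatives and was lost, among others, without T288P replicate 1, 2 or 4 and without WT replicate 1, 2 or 3, and the adjusted p ran from 7.01e-05 to 0.229. In M452I against WT the log2 fold change of PPL was -0.53 (SE 0.11, 95% interval -0.77 to -0.30), which edgeR did not call (adjusted p = 0.259, range 0.0048 to 0.732 over 24 alternatives, 2 of which called it). The 4 M452I wells lay below the 4 WT wells, as they did for 2.31% of all genes, and the T288P wells did so too, as for 2.94% of all genes. M452I and T288P differed in PPL by a log2 fold change of 0.12 (95% interval -0.12 to 0.35, edgeR adjusted p = 1.00), so a difference of that width between the alleles was not resolved.

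Envoplakin, the partner plakin of PPL, had log2 fold changes nearer to 0 than PPL in the comparisons of T288P+GDF11 and was called in 1 of them. EVPL (ENSG00000167880; chromosome 17, 76004502 to 76027452, minus strand) read 24.9, 22.5, 23.4 and 21.3 CPM in T288P+GDF11, 29.7, 24.9, 31.1 and 28.6 CPM in T288P, 21.0, 27.9, 23.9 and 31.6 CPM in M452I, and 29.6, 31.4, 34.1 and 26.7 CPM in WT. The T288P+GDF11 wells lay below all WT wells and overlapped those of M452I and, by 1 well, T288P. EVPL fell to 23.0 ± 1.53 CPM in T288P+GDF11, against 30.4 ± 3.10 CPM in WT (log2 fold change -0.40 ± 0.12 SE, adjusted p = 0.0152 by edgeR). That call was lost without WT replicate 2 or without WT replicate 3 (highest adjusted p 0.0646). Against T288P at 28.6 ± 2.68 CPM the log2 fold change was -0.31 (95% interval -0.56 to -0.06), which edgeR did not call (adjusted p = 0.0869). Whether the changes of PPL and EVPL differ was not tested.

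Transglutaminase 1, the membrane-bound enzyme that cross-links envelope proteins, had the lowest log2 fold change of the 7 genes upon GDF11 in T288P cells, from few reads. TGM1 (ENSG00000092295; chromosome 14, 24249114 to 24264432, minus strand) had 26 to 149 counts per library. It read 0.765, 0.875, 1.07 and 1.08 CPM in T288P+GDF11, 2.30, 2.19, 2.78 and 2.37 CPM in T288P, 0.954, 1.75, 2.17 and 3.59 CPM in M452I, and 2.67, 1.66, 3.35 and 1.30 CPM in WT. The T288P+GDF11 wells lay below all T288P and all WT wells, and M452I replicate 1 lay among them.

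TGM1 fell to 0.948 ± 0.154 CPM in T288P+GDF11, against 2.41 ± 0.260 CPM in T288P, 2.54-fold lower (log2 fold change -1.34 ± 0.35 SE, adjusted p = 0.0178 by edgeR). It was also lower than in WT at 2.25 ± 0.937 CPM (log2 fold change -1.25 ± 0.35 SE, adjusted p = 0.0123 by edgeR) and in M452I at 2.12 ± 1.10 CPM (log2 fold change -1.16 ± 0.35 SE, adjusted p = 0.0262 by edgeR). The first call was lost without T288P+GDF11 replicate 1 (adjusted p = 0.0604), the second without WT replicate 3 (adjusted p = 0.056), and the third under 8 of 24 alternatives, including those without M452I replicate 3 or 4 and without T288P+GDF11 replicate 1, 2 or 3. The alleles alone gave log2 fold changes of 0.10 in T288P against WT and -0.09 in M452I against WT, with intervals of -0.61 to 0.80 and -0.80 to 0.62 that leave changes of over 1.5-fold in either direction unresolved.

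The envelope precursor SCEL was called in no comparison. Sciellin, a substrate of transglutaminase, averaged 45.9 ± 1.79 CPM in T288P+GDF11, 49.2 ± 7.71 CPM in T288P, 51.2 ± 2.85 CPM in M452I and 52.0 ± 5.92 CPM in WT. SCEL (ENSG00000136155; chromosome 13, 77535674 to 77645263, plus strand) read 47.6, 43.4, 46.5 and 46.3 CPM in T288P+GDF11, 50.7, 42.8, 59.5 and 43.9 CPM in T288P, 47.6, 50.6, 52.1 and 54.4 CPM in M452I, and 55.0, 43.7, 57.2 and 51.8 CPM in WT. All 4 groups overlapped. In T288P+GDF11 against T288P the log2 fold change was -0.10 (95% interval -0.32 to 0.12, edgeR adjusted p = 0.569), and a fall as large as the -0.73 of PPL lies outside that interval. SCEL shares 144 exon bases with the antisense gene SCEL-AS1, which lay below the filter.

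Involucrin, the scaffold protein used as a marker of keratinocyte differentiation, had 36 counts over the 16 libraries, 0 to 7 in each and 0 in 7 of them. IVL (ENSG00000163207; chromosome 1, 152908545 to 152911886, plus strand) thus stood near the level that a count of 0 allows, 3 counts or 0.065 to 0.106 CPM. Cornifelin, a small envelope protein, had 71 counts, 0 to 11 in each library (CNFN, ENSG00000105427; chromosome 19, 42387019 to 42390287, minus strand). CALML5, a calcium-binding protein of differentiated epidermis (ENSG00000178372; chromosome 10, 5498697 to 5499555, minus strand), had 0 counts in all 16 libraries. IVL, CNFN and CALML5 were not tested, and no fold change is given for them. The highest value in any library was 0.180 CPM for IVL and 0.260 CPM for CNFN, so neither rose above these levels. A fall, or a change within that range, was not resolved at this depth.

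Of the 2 protease inhibitors, CSTA was called with GDF11 and A2ML1 was not. Cystatin A, an inhibitor of cysteine cathepsins that is built into the envelope, fell upon GDF11. CSTA (ENSG00000121552; chromosome 3, 122325244 to 122341972, plus strand) read 64.8, 76.9, 72.3 and 65.9 CPM in T288P+GDF11, 123, 92.1, 91.4 and 92.2 CPM in T288P, 115, 112, 125 and 94.5 CPM in M452I, and 84.7, 82.6, 94.0 and 96.3 CPM in WT. The T288P+GDF11 wells lay below all others. T288P replicate 1 was far above its group and M452I replicate 4 was the lowest of its own, the same wells that stood apart on the first principal component.

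CSTA fell to 70.0 ± 5.66 CPM in T288P+GDF11, against 99.8 ± 15.7 CPM in T288P (log2 fold change -0.51 ± 0.11 SE, adjusted p = 0.00547 by edgeR) and 112 ± 12.8 CPM in M452I (log2 fold change -0.68 ± 0.11 SE, adjusted p = 0.00057 by edgeR). Both calls held under all 24 alternatives. Against WT at 89.4 ± 6.76 CPM the log2 fold change was -0.35 (SE 0.11, edgeR adjusted p = 0.0201), and 5 of 24 alternatives lost it, among them those without T288P+GDF11 replicate 1 or 4 or without WT replicate 3 or 4 (highest adjusted p 0.079). CSTA was not called in M452I against WT (log2 fold change 0.32, 95% interval 0.10 to 0.55, edgeR adjusted p = 0.73). Without both outlying wells the M452I level was called higher than that of WT (log2 fold change 0.40, edgeR adjusted p = 0.0178). It was then also called higher than that of T288P (log2 fold change 0.36, edgeR adjusted p = 0.00825). For CSTA those wells were the lowest of M452I and the highest of T288P, so their removal by itself raises these differences. In that setting 640 and 2420 of 17212 genes were called in the same comparisons.

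A2ML1, an alpha-2-macroglobulin-like inhibitor that traps proteases of the epidermis, was the 1 tested member with a positive log2 fold change upon GDF11. A2ML1 (ENSG00000166535; chromosome 12, 8822472 to 8887001, plus strand) read 668, 435, 567 and 554 CPM in T288P+GDF11, 432, 525, 450 and 508 CPM in T288P, 449, 470, 442 and 523 CPM in M452I, and 501, 525, 499 and 513 CPM in WT. T288P+GDF11 spread more widely than the other groups and overlapped them, and its replicate 2 was among the lowest wells of the series. The means were 556 ± 95.3 CPM in T288P+GDF11 and 479 ± 44.6 CPM in T288P, and edgeR did not call the difference (log2 fold change 0.22, 95% interval -0.01 to 0.44, adjusted p = 0.205). Without T288P+GDF11 replicate 2 it was called (log2 fold change 0.33, edgeR adjusted p = 0.0432). Against M452I the log2 fold change was 0.24 (95% interval 0.01 to 0.47), which edgeR did not call (adjusted p = 0.123). Of 24 alternatives, 3 called that difference.

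Keratin 10, the keratin of suprabasal epidermal cells that pairs with keratin 1, varied widely between wells of the T288P and M452I groups. The gene of that partner, KRT1, had 0 counts in every library. KRT10 (ENSG00000186395; chromosome 17, 40818117 to 40822595, minus strand) read 7.62, 11.8, 9.15 and 9.92 CPM in T288P+GDF11, 19.4, 10.5, 12.6 and 13.3 CPM in T288P, 15.8, 20.1, 19.2 and 8.32 CPM in M452I, and 14.6, 14.2, 12.3 and 14.1 CPM in WT. The T288P+GDF11 wells lay below all WT wells and overlapped T288P and M452I. The 2 wells that stand apart are the outlying ones, T288P replicate 1 high and M452I replicate 4 low.

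KRT10 was called in 1 comparison, at 9.63 ± 1.75 CPM in T288P+GDF11 against 15.9 ± 5.36 CPM in M452I (log2 fold change -0.72 ± 0.23 SE, adjusted p = 0.0309 by edgeR), which 10 of 24 alternatives lost, including those without M452I replicate 1, 2 or 3 and without T288P+GDF11 replicate 1, 3 or 4. Without both outlying wells that log2 fold change was -0.93 (edgeR adjusted p = 2.99e-05). KRT10 was then called also in T288P+GDF11 against WT (-0.52, edgeR adjusted p = 0.00426). It was then called higher in M452I than in T288P (0.60, edgeR adjusted p = 0.0128). For KRT10 the wells left out were the lowest of M452I and the highest of T288P, so their removal by itself raises M452I over T288P. In that setting 6941 of 17212 genes were called in T288P+GDF11 against M452I, 6249 against WT, and 2420 in M452I against T288P. In all wells, T288P+GDF11 against T288P at 14.0 ± 3.79 CPM gave -0.53 (edgeR adjusted p = 0.127) and against WT at 13.8 ± 1.02 CPM -0.52 (edgeR adjusted p = 0.0944). KRT10 shares 56 exon bases, 2.61% of its own, with TMEM99 on the opposite strand, and the strand setting of the counting is not known.

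Among the members, CSTA and KRT10 had a Pearson r of log2 CPM of 0.80 over 16 libraries and 0.76 for the deviations from group means. Without both outlying wells the same values over 14 libraries were 0.87 and 0.30, so that the likeness within groups rested on those wells. A2ML1 ran opposite to both, at -0.66 to CSTA and -0.69 to KRT10 within groups, and at -0.59 and -0.70 without both wells. PPL and EVPL had r = 0.72 over the 16 libraries and 0.51 within groups, and 0.76 and 0.63 without both wells. These are descriptions over libraries that share the scaling to one total. The genes whose log2 CPM was most like that of PPL over the 16 libraries, among 10433 genes with a symbol and a mean of at least 3 CPM, were LMTK2 (r = 0.971), MYH14 (0.970), KLF13 (0.967), MYH9 (0.966) and MYO1D (0.966). Without both outlying wells these r lay between 0.968 and 0.983. LMTK2 is a membrane-anchored kinase, MYH14 and MYH9 are heavy chains of non-muscle myosin, KLF13 is a zinc-finger transcription factor and MYO1D a class I myosin. MYH14 averaged 7.65 CPM in T288P+GDF11, 15.0 CPM in T288P, 15.7 CPM in M452I and 25.7 CPM in WT. LMTK2 averaged 18.1, 28.7, 30.3 and 39.2 CPM in the same groups, the order of the group means of PPL. Such genes were picked for their likeness to PPL in the same libraries, so the shared order and the high r follow from that choice.

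In the 5 lists of related genes, not all of them particular to cornification, most calls were again with GDF11. Of 29 other envelope and late differentiation proteins, 16 were tested, with 7 lower and 0 higher in T288P+GDF11 than in T288P (median log2 fold change -0.59). Among those below the filter, LORICRIN, RPTN and KRT1 had 0 counts in every library. FLG, FLG2, HRNR and CRNN had totals of 8, 2, 7 and 3 counts. The 7 called genes, listed after their values were seen, were ANXA1 (-0.68) and the small proline-rich family members SPRR1A, SPRR1B, SPRR2A, SPRR2D, SPRR2E and SPRR3. Tested genes outside that family had log2 fold changes on both sides of 0, and edgeR called none of them but ANXA1. The 4 called genes with the smallest adjusted p were small proline-rich proteins, cross-linked envelope precursors. SPRR1A averaged 4.29 CPM in T288P+GDF11 and 13.7 CPM in T288P (log2 fold change -1.68, edgeR adjusted p = 5.19e-06), and SPRR2A 7.95 CPM in T288P+GDF11 and 40.8 CPM in T288P (-2.36, edgeR adjusted p = 0.000352). SPRR1B (-1.21) and SPRR2E (-2.43) were lower too. SPRR1 and SPRR2 are subfamilies of similar copies, so the split of reads within a subfamily is uncertain, and shared reads were not measured. In M452I against WT and T288P against WT, 0 of the 16 were called by edgeR, and under the alternatives the count ran from 0 to 2 and from 0 to 0.

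Of 5 other plakins, all tested, 2 were lower with GDF11 and 0 higher. Desmoplakin (DSP), which anchors keratins to desmosomes, averaged 627 CPM in T288P+GDF11 and 843 CPM in T288P (log2 fold change -0.43, edgeR adjusted p = 0.0134), and epiplakin (EPPK1) 2.60 CPM in T288P+GDF11 and 5.16 CPM in T288P (-0.99, edgeR adjusted p = 0.00823). None of the 5 was called in either allele against WT by edgeR, and the alternatives gave 0 to 1.

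Of 19 cross-linking and processing enzymes, 14 were tested, and the calls with GDF11 went both ways, 3 higher and 5 lower than in T288P. TGM3 and KLK7, below the filter, had 0 counts in every library. Cathepsin C (CTSC), a lysosomal protease, averaged 162 CPM in T288P+GDF11 and 71.1 CPM in T288P (log2 fold change 1.19, edgeR adjusted p = 3.66e-05), and cathepsin V (CTSV) rose as well (0.57). The serine proteases KLK5 (-1.62) and PRSS8 (-1.14) fell. The other called genes of that list, named after their values were seen, were SPINK5 (0.58), a serine protease inhibitor, and PADI1 (-0.97), CAPN1 (-0.46) and ST14 (-0.42). PADI1 and PADI2, which convert arginine to citrulline in structural proteins, were the list genes that edgeR called between an allele and WT. Under the alternatives, the number of these enzymes called ran from 1 to 6 in T288P against WT and from 0 to 2 in M452I against WT. PADI2 averaged 6.53 CPM in T288P and 15.8 CPM in WT (log2 fold change -1.27, edgeR adjusted p = 0.000736), and 7.74 CPM in M452I and 15.8 CPM in WT (-1.03, edgeR adjusted p = 0.00505), a call lost without WT replicate 2 and in the model of only the groups compared (highest adjusted p 0.183). PADI1 averaged 2.41 CPM in T288P and 5.73 CPM in WT (-1.25, edgeR adjusted p = 0.0386), a call that 15 of 24 alternatives lost. PADI2 in T288P+GDF11 against T288P had a log2 fold change of -0.09 (edgeR adjusted p = 0.712).

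Among the 20 differentiation regulators, all tested, 6 were lower and 1 higher in T288P+GDF11 than in T288P. The epithelial transcription factors ELF3 (17.0 CPM in T288P+GDF11 and 49.8 CPM in T288P, log2 fold change -1.55, edgeR adjusted p = 0.000163) and OVOL1 (6.47 and 15.4 CPM in the same groups, -1.25, edgeR adjusted p = 0.00123) fell. GRHL1, a grainyhead-like factor, had -0.58 and FOSL1, an AP-1 subunit, -0.60. The 1 regulator that was higher, named after its values were seen, was MAF, at 1.30 CPM in T288P+GDF11 and 0.478 CPM in T288P (1.45, edgeR adjusted p = 0.04). Of 14 barrier lipid genes, 10 were tested, with 3 lower and 1 higher. SULT2B1, a sterol sulfotransferase, had a log2 fold change of -1.44 (edgeR adjusted p = 0.0021). The calls of ELOVL1 (-0.77) and UGCG (-0.51), which make long acyl chains and glucosylceramide, and of ALOXE3 (0.54), a lipoxygenase, were lost under 3, 4 and 6 of 24 alternatives. The background for these lists is the 7.88% lower and 5.07% higher among all genes given for this comparison, and 0 regulators and 0 barrier lipid genes were called by edgeR in T288P or M452I against WT, with 0 to 2 and 0 to 1 under the alternatives in T288P and 0 in M452I.

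**Figure D4:**
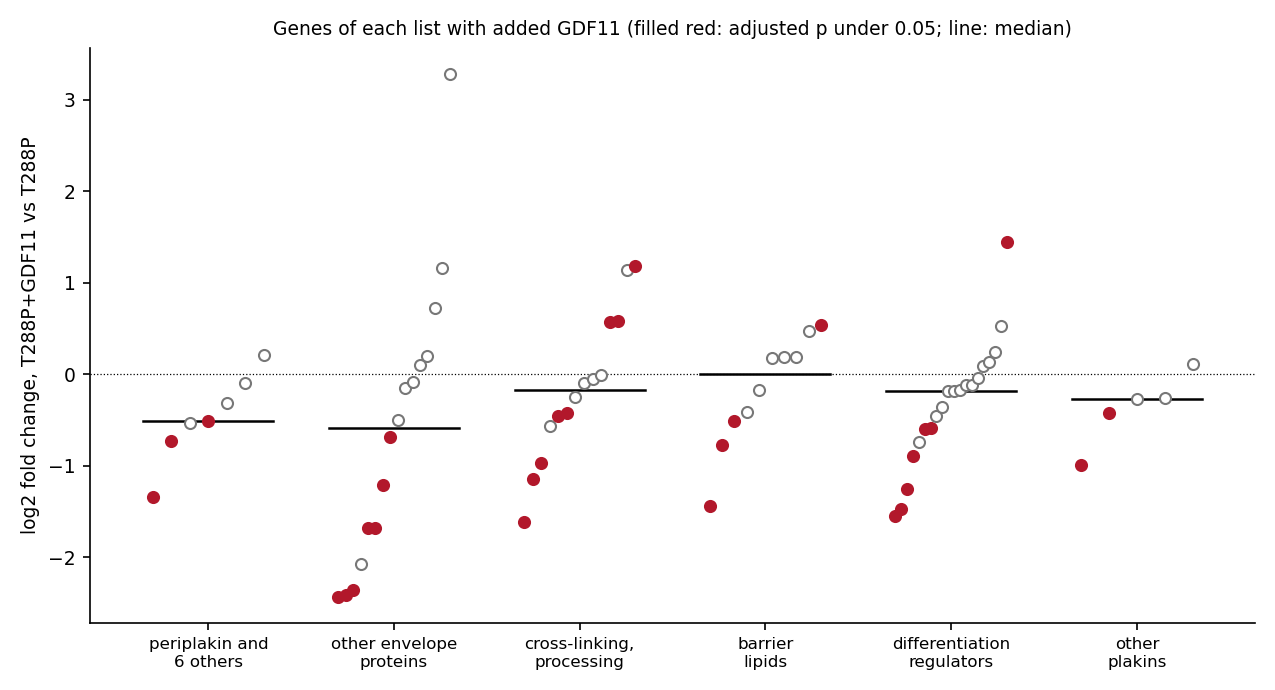
Log2 fold change in T288P+GDF11 against T288P (vertical axis) of every tested gene of the 5 lists and of the 7 tested envelope genes, with 1 point per gene, filled where edgeR called it, and a line at the median. The lists of other envelope proteins and plakins hold called genes below 0 only, and the enzymes hold 3 called above and 5 below 0.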

How the data were processed

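Poly(A) RNA of 16 libraries was sequenced with paired reads. The authors deposited whole-number counts per gene, not normalized, per the file headers and values. HISAT2 and StringTie 2.2.1 were used with GRCh38, per the submitters' processing notes, and how counts per gene were made, with which annotation and strand setting, is not given in the sources used here. Single counts were 1.05 times as frequent as counts of 2, so the mates of a pair may have been counted separately.

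Tests ran in R 4.3.3 with edgeR 4.0.16: TMM, filterByExpr (minimum count 10), a robust quasi-likelihood model of all 16 libraries without a covariate, and Benjamini-Hochberg adjustment over 16790 genes. Calls needed an adjusted p under 0.05. SEs were derived from the log2 fold change and its F statistic. The script was tested on simulated data. Coordinates, exon lengths and overlaps are those of GENCODE 29 on GRCh38. CPM used TMM factors, and a prior count of 2 was added for log2 CPM in correlations.

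Named were all 10 members, PCSK5, the 5 genes most like PPL, up to 4 called genes per list with the smallest adjusted p in T288P+GDF11 against T288P, and any list gene called in an allele against WT. The members, lists and tests were chosen with earlier results of these data known. Alternatives were RLE scaling, no filter, a stricter filter (50 counts in 4 libraries), DESeq2 1.42.0, limma-voom (limma 3.58.1), a fit restricted to the groups compared, a replicate block, leaving out each library in turn and, added after seeing the data, leaving out both outlying libraries. Counting precision follows the depth of 28.5 to 50.8 M counts, and floors of 3 counts cover counting error only.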

Additional observations from a re-analysis of the deposited data

Results flagged for a closer look

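CSTA in T288P replicate 1 stood apart from the other wells of its group. It read 123 CPM, and the others read 91.4 to 92.2 CPM, so that the gap to the nearest well was 0.976 of the range of the group, beyond the critical value of 0.829 for 4 values. It was the 1 value flagged in 36 groups of 4, where chance flags about 1 group in 20. Without T288P replicate 1 and M452I replicate 4, the log2 fold change of CSTA in T288P+GDF11 against T288P was -0.39 (edgeR adjusted p = 0.00198), and in T288P against WT it was 0.04 (edgeR adjusted p = 0.85).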

How the results depend on the processing

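Of 1007 log2 fold changes of members recomputed under the alternatives, 934 kept their direction and side of the threshold, 42 lost a call, 14 gained one and 17 changed sign, none of the 17 a called value. The number of members called in M452I against WT was 0. It became 1 with DESeq2 (beside 30 of 16790 genes) and 2 without both outlying libraries (beside 640 of 17212 genes). In T288P against WT it was 1, and became 0 in the model of only the groups compared and 0 with the replicate number as a block. In T288P+GDF11 against M452I it was 4, and became 2 with limma-voom and 2 in the model of only the groups compared. In M452I against T288P it was 0, and 2 without both outlying libraries, beside 2420 of 17212 genes called. Leaving out each library in turn gave 2 to 5 members in T288P+GDF11 against T288P, 1 to 5 against WT, 2 to 4 against M452I, and 0 to 1 in T288P against WT. It was 0 to 0 in M452I against WT and in M452I against T288P.

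Replicate numbers did not pair the wells: same-numbered wells correlated at -0.197 to 0.174, with 4 of 24 pairs over 0.1, and 2 of 16 libraries were closest to their own number. For KRT10 in T288P against WT the log2 fold change of 0.017 became -0.033 with limma-voom and -0.18 without both outlying libraries. The other sign changes arose when 1 library was left out. With each library left out in turn, KRT10 in T288P against WT ran from -0.17 to 0.13 and TGM1 from -0.085 to 0.36. In M452I against WT, SCEL ran from -0.095 to 0.026 and TGM1 from -0.46 to 0.17. In M452I against T288P, A2ML1 ran from -0.081 to 0.019, SCEL from -0.0074 to 0.16 and TGM1 from -0.55 to 0.050. In T288P+GDF11 against T288P, SCEL ran from -0.14 to 0.0048. The cause was not tested.

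The count over all genes depended on the libraries and tool. In T288P against WT it was 7, and 80 with DESeq2, 11 without a filter, 1 with the block and 698 without both outlying libraries. In M452I against WT it was 4, and 30 with DESeq2, 0 in the model of only the groups compared and 640 without both outlying libraries. In T288P+GDF11 against T288P it was 2174, and 1391 without a filter. In M452I against T288P it was 1, and 6 with DESeq2, 0 in the model of only the groups compared and 2420 without both outlying libraries. In T288P+GDF11 against M452I it was 3558, and 2261 in the model of only the groups compared and 6941 without both outlying libraries. Leaving out each library in turn gave 1 to 29 in T288P against WT, 1 to 9 in M452I against WT, 1028 to 3435 in T288P+GDF11 against T288P and 1661 to 6578 against M452I. At 26 to 149 counts TGM1 is the called member with the least depth, and IVL, CNFN and CALML5 lay below the filter and were not tested.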
